A study of Mus musculus with 19 samples.

Results

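AP5 was compared with vehicle after 6 h in cultured mouse hippocampal neurons, on the 5 arrays titled as AP5 and the 5 titled as control out of the 19 arrays of the series. The neurons were dissociated, kept for 21 days in culture and treated in 6-well plates with vehicle or with 100 µM AP5. The remaining 9 arrays carried neurons given 100 nM NVP (n = 4) or 1 µM of the compound titled Ro25 (n = 5), and they entered the statistical model only to estimate the spread between arrays. The labels name no strain, sex or genotype, and nothing in them says whether replicates were separate cultures, so the spread behind every p-value is that between these samples and may be technical. Each array compared neuron RNA, labelled red with Cy5, with the same universal mouse reference RNA, labelled green with Cy3, and the level of a gene is its log2 ratio of red over green. A level shows how a gene in the neurons stands against that reference, so levels are compared between arrays and not between genes. Every gene measured was a member of the comparison, which gave 19201 genes with a value, represented by 1 probe each out of 28638 probes kept.

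The layout of the slides limits the comparison. AP5 arrays 1 to 4 shared slide 1 and AP5 5 was on slide 2, while vehicle arrays 1, 3, 4 and 5 shared slide 5 and vehicle 2 was on slide 4. No slide held both groups, so slide and treatment cannot be told apart from the AP5 and vehicle arrays alone. This holds for AP5 5 and vehicle 2 as well, which were on different slides. With slide as a fixed block, which links the groups only through the arrays of the other drugs, the median standard error of the called genes was 0.21 and 10 genes were called. The median red signal was 135.5 to 172.1 on these arrays, 24506 to 28369 probes had a red signal well above background, and saturation affected no gene spot. Precision was limited by the number of arrays, with a median standard error of 0.08 for a log2 change and a median half-width of 0.16 for its 95% interval. Neurons and glia were measured together, so fewer cells of a type and less RNA per cell cannot be told apart.

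AP5 competes with glutamate for its site on NMDA receptors, the calcium-permeable glutamate channels of excitatory synapses. In neurons that fire spontaneously in culture these receptors pass calcium at rest, which activates calmodulin kinases, calcineurin and the Ras-ERK cascade and keeps a set of activity-regulated genes transcribed. Blocking the receptors lowers this drive without silencing transmission through AMPA receptors.

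With AP5, 2077 genes were higher (10.8% of those tested) and 1388 were lower (7.23%), 3465 genes in all (18%, limma, adjusted p under 0.05). Changes were mostly small, and 282 genes, 192 higher and 90 lower, changed at least 1.5-fold. No array of one group fell within the range of the other for 2288 genes (11.9%), of which 2091 were also called. Each channel was then tested alone. In red, which holds the neuron RNA, 2107 genes were called (11%). In green, which holds the same reference RNA on every array and no labelled neuron RNA, 1231 genes were called (6.41%). Both RNAs share a spot, and whether the neuron RNA affects green was not tested.

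Red is the numerator of the ratio and comes from the same spots, so a call in red is not independent of the call in the ratio. Slide and treatment are not separated in red either. Of the 3465 genes called in the ratio, 1405 were also called the same way in red and 3053 had the same sign in red. A further 18 were called the other way in red, and all 18 were higher in the ratio and called lower in green. Genes called in the ratio and the same way in red, with green not called, numbered 1301 (6.78% of those tested), 851 higher and 450 lower, and these are the genes described first below. Among the 282 genes changed at least 1.5-fold, 239 were called the same way in red and 39 were called in green. Of the 42 whose red signal was not called, 38 were higher and 4 were lower.

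**Figure D1:**
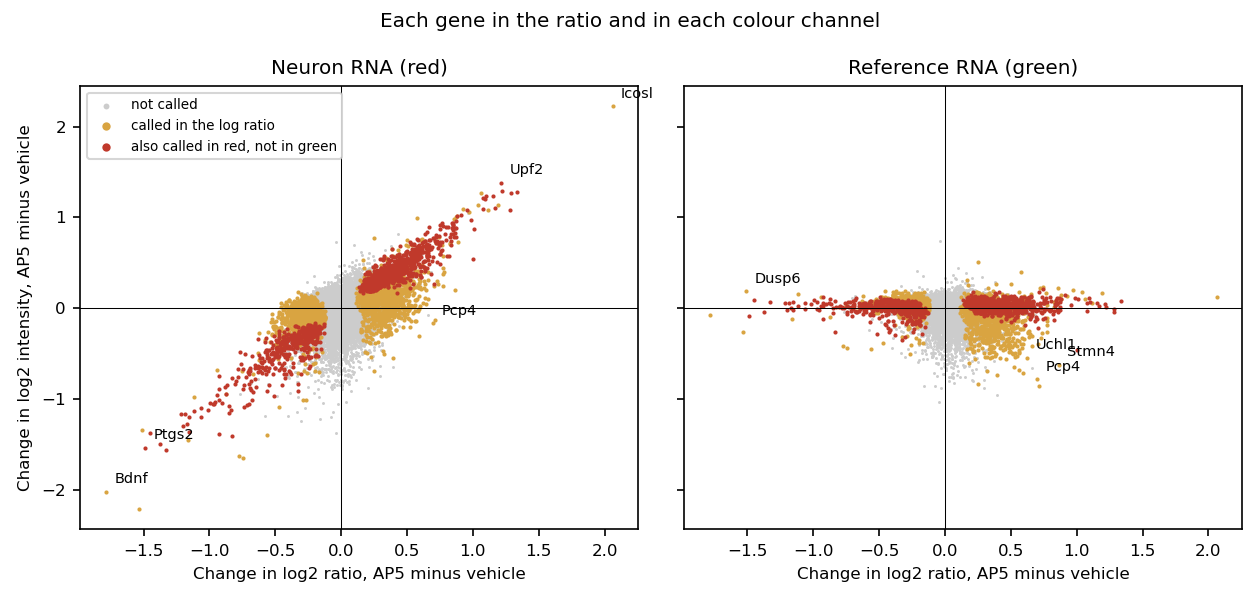
Change between AP5 and vehicle in the red channel (left, neuron RNA) and in the green channel (right, reference RNA), in log2 intensity, against the change in the log2 ratio, with 1 point per gene. The 1301 genes called in the ratio and in red but not in green follow the diagonal on the left, and Pcp4, Stmn4 and Uchl1 carry their ratio change in the green channel.

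Several genes of nonsense-mediated decay were higher with AP5. This pathway destroys mRNAs on which translation stops early, and its core factors are the helicase Upf1 with its partners Upf2 and Upf3b, the kinase complex of Smg1 and Smg9 that phosphorylates Upf1, and the effectors Smg5 and Smg6 that bring in the nucleases. Of 17 genes of the pathway, 9 were higher with AP5 (52.9%, beside 10.8% of all genes) and 2 were lower (11.8%, beside 7.23%). Their median change was 0.19 against 0.01 over all genes. In red 8 of the 9 were called higher, beside 1146 of all 19201 genes. The list was written with the rise of Upf2 already known, so its count is a description. The mean log2 ratio of the 17 genes ran from -0.15 to -0.08 over the AP5 arrays and from -0.45 to -0.38 over the vehicle arrays, with no overlap.

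The log2 ratio of Upf2 was 0.11, -0.06, -0.05, 0.34 and -0.03 on AP5 arrays 1 to 5 and -1.18, -1.31, -1.22, -1.11 and -0.95 on vehicle arrays 1 to 5. Every AP5 array lay above every vehicle array, and the gene rose by 1.22 (SE 0.10, limma adjusted p = 1.09e-07), which is 2.33-fold with a 95% interval of 1.01 to 1.42 on the log2 scale. Its red signal rose by 1.38 and green differed by 0.05, which was not called. The probe lay on chromosome 2 at 5973448 to 5973507 (mm8).

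The log2 ratio of Upf1 was -0.26, -0.26, -0.21, -0.23 and -0.31 on AP5 arrays 1 to 5 and -0.86, -0.80, -0.71, -0.85 and -0.74 on vehicle arrays 1 to 5. It rose by 0.54 (SE 0.07, limma adjusted p = 2.30e-05) and its nearest arrays lay 0.39 apart. The log2 ratio of Upf3b, on the X chromosome, was 1.13, 0.76, 0.77, 0.96 and 1.05 on AP5 arrays 1 to 5 and 0.16, 0.38, 0.40, 0.31 and 0.21 on vehicle arrays 1 to 5, with a rise of 0.64 (SE 0.07, limma adjusted p = 5.26e-06) and no overlap. Its paralogue Upf3a, which can stand in for Upf3b in mammals, did not follow and fell by 0.13 (SE 0.04, adjusted p = 0.0356), without a call in red (-0.14). The call of Upf3a was lost without AP5 1, 2 or 5 or vehicle 2, 3, 4 or 5, with changes of -0.14 to -0.11.

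The kinase and effector genes also rose. The log2 ratio of Smg1 was -0.79, -0.82, -0.46, -0.43 and -0.77 on AP5 arrays 1 to 5 and -1.59, -1.38, -1.33, -1.33 and -1.06 on vehicle arrays 1 to 5, a rise of 0.69 (SE 0.12, limma adjusted p = 5.14e-04). Smg5 stood at -0.20, -0.01, 0.08, 0.08 and -0.01 on AP5 arrays 1 to 5 and -0.66, -0.70, -0.59, -0.38 and -0.52 on vehicle arrays 1 to 5 and rose by 0.56 (SE 0.07, limma adjusted p = 1.99e-05). Arrays of the 2 groups did not overlap for either gene. Smg6, the endonuclease of the pathway, rose by 0.54 (SE 0.05, limma adjusted p = 6.45e-07), again with no overlap, and its green was called at 0.10. Smg9 rose by 0.35 (SE 0.04, limma adjusted p = 2.92e-05), while the decapping genes Dcp1a and Pnrc2 rose by 0.19 and 0.38 (adjusted p = 0.0112 and 0.00737), the latter without a call in red. Eif4a3, the helicase at the core of the exon junction complex, fell by 0.20 (SE 0.06, adjusted p = 0.0314) with overlapping groups, a call that was lost without AP5 1, 3 or 4 or vehicle 1 or 4 (-0.19 to -0.16). The 6 members that were not called lay between -0.09 and 0.17.

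The other arrays of the series carried other drugs at other doses, which make no matched comparison, and share the vehicle arrays. Upf2 lay between -1.22 and -0.89 on the 4 NVP arrays and between -1.30 and -0.82 on the 5 Ro25 arrays. Smg6 lay between -0.40 and -0.30 with NVP and between -0.45 and -0.27 with Ro25. These arrays were hybridised on slides 2 to 4. AP5 5 and vehicle 2, which were on slides 2 and 4 as well, differed by 1.28 for Upf2, 0.70 for Smg6, 0.69 for Smg5 and 0.48 for Upf1. With slide as a fixed block Upf2 rose by 1.27, with an adjusted p = 0.225, and the 11 called genes of the pathway kept their direction under every alternative tried.

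Probes of the decay genes differed with their brightness, the mean log2 intensity of both channels. The probe that represents Upf2 had a brightness of 10.4, and the other 3, between 6.64 and 7.35, changed by -0.01, 0.44 and 0.78. For Smg1 the other bright probe changed by 0.55 and the 2 dim probes by 0.10 and 0.15. Smg6 had a pair of further probes of brightness 8.58 and 9.08, which rose by 0.83 and 0.72 and lay at 74745424 to 74745730 of chromosome 11 (mm8), against 74980310 to 74980369 for the representing probe. Its 2 dim probes changed by 0.00 and 0.11. The only other probe of Smg5, with a brightness of 7.05, was at -0.16. The further probes of Upf3b rose by 0.52 and 0.40 at a brightness of 9.88 and 8.88, and a dimmer one of 7.68 was at -0.17 (adjusted p = 0.265).

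Transcripts known as substrates of nonsense-mediated decay were listed after the values of the pathway had been seen. Of 16 such genes 12 were measured, and 6 rose in the ratio and in red while 2 fell in the ratio only, with a median change of 0.22. Of all genes 10.8% rose and 7.23% fell in the ratio, and 1146 of 19201 were called higher in red. Those that rose were the snoRNA host genes Zfas1 (0.66) and Snhg5 (0.38) and the stress genes Gadd45a (0.61), Gadd45b (0.66), Ddit3 (0.32) and Atf3 (0.67), the last a transcription factor of the integrated stress response. Zfas1 was at -1.55, -1.75, -1.56, -1.60 and -1.49 on AP5 arrays 1 to 5 and -2.40, -2.24, -2.23, -2.18 and -2.18 on vehicle arrays 1 to 5. The AP5 arrays were all higher, by 0.66 (SE 0.06, limma adjusted p = 4.00e-07). Gadd45a was at -1.51, -1.79, -1.91, -1.86 and -1.53 on AP5 arrays 1 to 5 and -2.34, -2.29, -2.34, -2.35 and -2.36 on vehicle arrays 1 to 5, again with every AP5 array above vehicle and a difference of 0.61 (SE 0.07, limma adjusted p = 7.94e-06). The host genes Snhg3 (-0.18) and Snhg8 (-0.32) fell in the ratio and were not called in red, and both rose under scaling of the arrays to equal spread (0.36 and 0.05). The fall of Snhg3 was also lost without AP5 1, 2, 3 or 4 or vehicle 3, 4 or 5 (-0.19 to -0.14). The other probe of Snhg5 was at -0.28 (adjusted p = 0.0332), and the remaining 4 genes lay between -0.02 and 0.11. Several of these 6 genes are also known targets of other stress pathways and of neuronal activity.

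**Figure D2:**
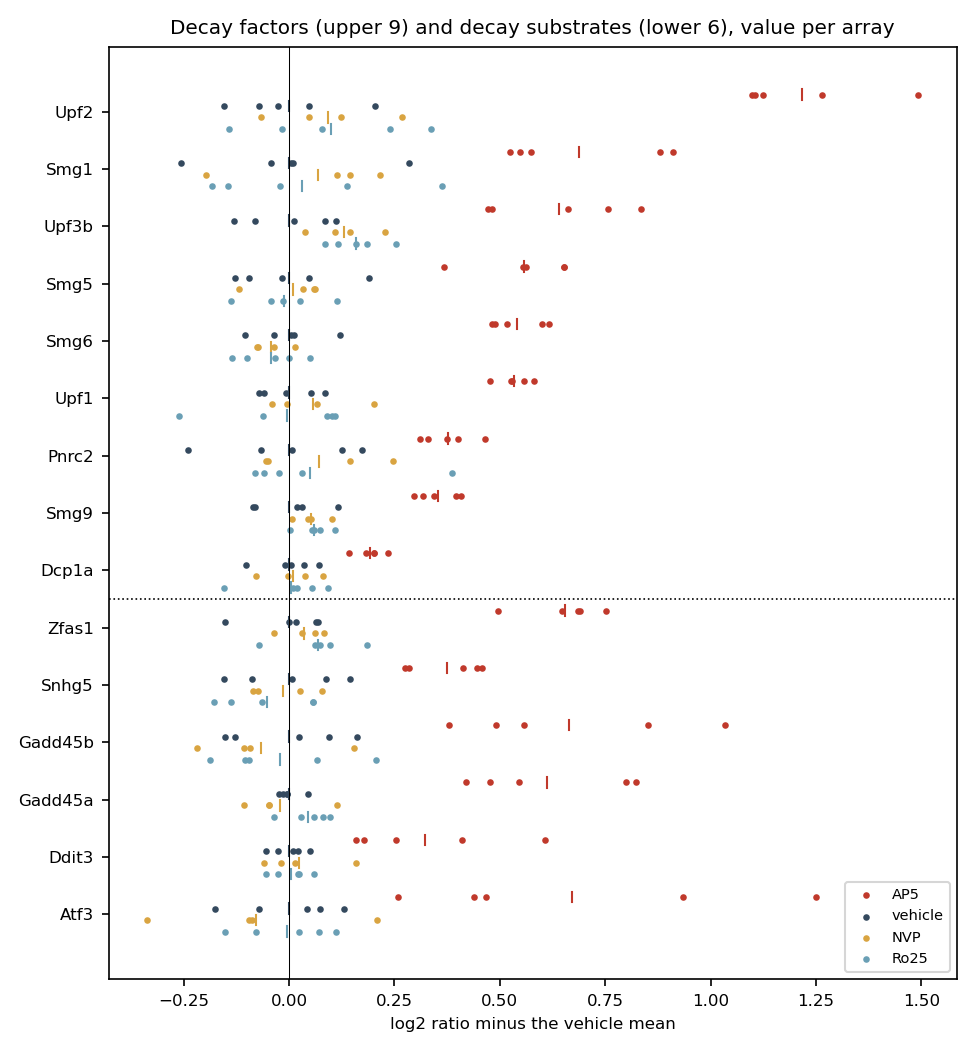
Log2 ratio of each array minus the vehicle mean of the gene, for the 9 genes of nonsense-mediated decay that rose (upper part) and the 6 decay substrates that rose (lower part), with a bar at each group mean. AP5 arrays (n = 5) lie to the right of the vehicle arrays (n = 5) for all 15 genes, while the ranges of NVP (n = 4) and Ro25 (n = 5) arrays overlap those of vehicle.

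Genes measured by several probes that all moved the same way came next. The rule took the 12 largest changes each way among genes called in the ratio and in red, not called in green, without overlap of arrays and with every probe called. Among the rises, Nkd2, an inhibitor of Wnt signalling that binds Dishevelled, was at 4.11, 4.27, 4.31, 4.46 and 4.03 on AP5 arrays 1 to 5 and 2.95, 3.14, 3.17, 3.54 and 3.33 on vehicle arrays 1 to 5. It was higher on every AP5 array, by 1.01 (SE 0.10, limma adjusted p = 2.99e-06), and its probes changed by 0.80 to 1.01. Med20, a subunit of the Mediator complex, was at -0.35, -0.09, -0.02, -0.13 and -0.08 on AP5 arrays 1 to 5 and -1.01, -1.15, -1.16 and -1.05 on vehicle arrays 1, 2, 3 and 4, with a rise of 0.96 (SE 0.07, limma adjusted p = 6.16e-08) and vehicle 5 missing because its spots were marked. Kpna4, an importin that carries proteins into the nucleus, was at 1.23, 1.23, 1.17, 1.22 and 1.32 on AP5 arrays 1 to 5 and 0.41, 0.45, 0.24, 0.40 and 0.43 on vehicle arrays 1 to 5 and rose by 0.85 (SE 0.06, limma adjusted p = 5.25e-08). The lowest AP5 array of Kpna4 lay 0.72 above the highest vehicle array.

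Cdk20, a kinase related to the cell cycle kinases, was at 0.32, 0.44, 0.50, 0.46 and 0.53 on AP5 arrays 1 to 5 and -0.20, -0.38, -0.30, -0.27 and -0.42 on vehicle arrays 1 to 5 and rose by 0.76 (SE 0.05, limma adjusted p = 1.95e-08). Zc3h7a, a zinc finger protein that binds RNA, rose by 0.68 (SE 0.06, limma adjusted p = 4.46e-07). Both had tight groups with no overlap. Slc16a1, the monocarboxylate transporter that moves lactate and pyruvate, rose by 0.87 (SE 0.11, limma adjusted p = 3.88e-05) over 3 probes (0.61 to 0.87). Dusp14, a phosphatase of MAP kinases, rose by 0.83 (SE 0.11, limma adjusted p = 6.66e-05). Arhgap20 (0.75), Ppp4r4 (0.71), Gadd45b (0.66) and Lyst (0.66), a regulator of lysosome size, completed the rises together with Parm1.

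Parm1 shows how arrays differed within groups. It was at 3.06, 2.50, 2.41, 2.63 and 3.42 on AP5 arrays 1 to 5 and 1.69, 2.25, 2.40, 1.67 and 1.75 on vehicle arrays 1 to 5. AP5 1 and 5 were high among the AP5 arrays, vehicle 2 and 3 were high among the vehicle arrays, and vehicle 3 came within 0.01 of AP5 3, so that the rise of 0.85 (SE 0.24, limma adjusted p = 0.0184) had the widest interval among these 24 genes (0.35 to 1.35). Without AP5 5 it was 0.70 and no longer called (adjusted p = 0.0510). AP5 5 and vehicle 3 were also the arrays lowest in astrocyte markers, with a mean log2 ratio over 14 markers of 2.63 and 2.60 against 3.37 to 4.09 on the other 8. The part of this difference in the result was not tested beyond a fit with that mean as a covariate, in which Parm1 rose by 0.95.

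**Figure D3:**
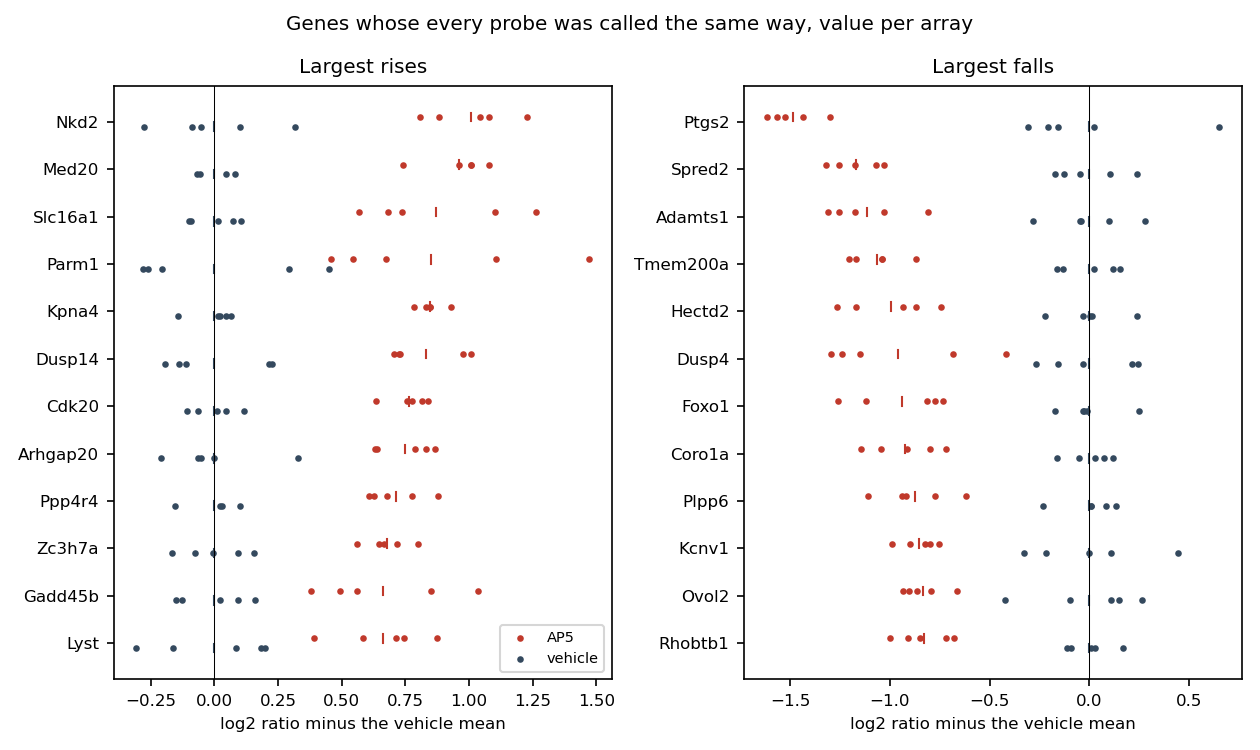
Log2 ratio of each array minus the vehicle mean of the gene, for the 12 largest rises (left) and 12 largest falls (right) among genes whose every probe was called the same way, with a bar at each group mean (n = 5 arrays a group, 4 for vehicle in Med20 and Ppp4r4). The 2 groups do not overlap for any of the 24 genes, which was a condition of their choice.

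The largest falls with several probes included genes that neuronal activity is known to induce. Ptgs2, the inducible cyclooxygenase, was at -2.64, -2.68, -2.55, -2.74 and -2.42 on AP5 arrays 1 to 5 and -1.43, -1.10, -0.47, -1.33 and -1.28 on vehicle arrays 1 to 5. It fell by 1.49 (SE 0.16, limma adjusted p = 3.55e-06), which is 2.8-fold, and both probes gave at least that (-1.61 to -1.49). Spred2, an inhibitor of the Ras-ERK cascade, was at -0.88, -0.74, -0.82, -0.63 and -0.59 on AP5 arrays 1 to 5 and 0.27, 0.31, 0.68, 0.39 and 0.54 on vehicle arrays 1 to 5, and Dusp4, a nuclear phosphatase of ERK, at -0.54, -1.10, -1.15, -1.01 and -0.28 on AP5 arrays 1 to 5 and -0.02, 0.38, 0.36, -0.13 and 0.11 on vehicle arrays 1 to 5. Spred2 fell by 1.17 (SE 0.09, adjusted p = 6.16e-08) with 0.86 between the nearest arrays, and Dusp4 by 0.96 (SE 0.18, adjusted p = 0.00144) with 0.15 between AP5 5 and vehicle 4. With slide as a fixed block Dusp4 was at 0.01, so its direction was not kept. Adamts1, a secreted protease that cleaves proteoglycans, fell by 1.12 (SE 0.12, adjusted p = 3.44e-06).

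Tmem200a, a membrane protein with little known function, was at 1.74, 1.44, 1.57, 1.41 and 1.57 on AP5 arrays 1 to 5 and 2.63, 2.76, 2.48, 2.73 and 2.45 on vehicle arrays 1 to 5, a fall of 1.07 (SE 0.08, adjusted p = 6.16e-08) with no overlap. Coro1a, an actin-binding coronin, fell by 0.92 (SE 0.08, adjusted p = 1.71e-07), and its probes changed by -0.96 to -0.92. Foxo1, a transcription factor restrained by PI3 kinase and Akt, was at -1.64, -1.30, -1.34, -1.26 and -1.78 on AP5 arrays 1 to 5 and -0.56, -0.70, -0.55, -0.54 and -0.27 on vehicle arrays 1 to 5 and fell by 0.94 (SE 0.12, adjusted p = 2.46e-05). Its lowest arrays were AP5 1 and 5. Hectd2 (-1.0), Plpp6 (-0.87), Kcnv1 (-0.85), a modulatory potassium channel subunit, Ovol2 (-0.83) and the GTPase Rhobtb1 (-0.83) completed the falls.

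Among genes with 1 kept probe, the largest rises that met the same conditions were B3galt5, Tmem114, Kdr, Prkab2, Nos1, Cavin2, Pmaip1, Colec11, Rasl11b and Zfp750. B3galt5, a galactosyltransferase that builds glycolipid and glycoprotein chains, was at 7.16, 6.97, 6.90, 6.99 and 6.98 on AP5 arrays 1 to 5 and 5.59, 5.91, 5.56, 5.79 and 5.48 on vehicle arrays 1 to 5. It rose by 1.33 (SE 0.09, limma adjusted p = 1.98e-08), and the nearest arrays lay 0.99 apart. Cavin2, a coat protein of caveolae, was at -3.95, -4.30, -4.10, -4.10 and -3.87 on AP5 arrays 1 to 5 and -5.18, -5.14, -5.19, -5.14 and -5.06 on vehicle arrays 1 to 5 and rose by 1.08 (SE 0.07, limma adjusted p = 1.95e-08), with all vehicle arrays within -5.19 and -5.06. Zfp750 had red well above background on 1 vehicle array and on all 5 AP5 arrays, so its rise of 0.88 starts from a level near background.

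The largest falls with 1 probe were of Nr4a1, Plk3, Npas4, Ankrd37, Rasl11a, Phlda1, Cebpd, Hunk, Lurap1 and Hs3st1. Nr4a1, an orphan nuclear receptor, was at -2.55, -2.32, -2.37, -2.62 and -2.45 on AP5 arrays 1 to 5 and -1.25, -1.01, -0.71, -1.06 and -1.03 on vehicle arrays 1 to 5 and fell by 1.45 (SE 0.08, adjusted p = 5.02e-09). Npas4, a transcription factor specific to neurons, had red well above background on 1 AP5 array, so its fall of 1.33 is limited by background. Cebpd, a transcription factor of inflammation, spread widely with AP5, at -2.65, -1.64, -1.76, -2.35 and -3.05 on AP5 arrays 1 to 5 and -1.08, -1.05, -1.40, -1.10 and -1.04 on vehicle arrays 1 to 5, and fell by 1.16 (SE 0.20, adjusted p = 6.88e-04). AP5 5 was the lowest array and AP5 2 lay 0.25 below the lowest vehicle array.

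Some of the largest changes were left out of these groups because the reference channel was called too. Icosl, a ligand for a T cell co-stimulator, rose by 2.06 in the ratio and by 2.22 in red, with green at 0.12. Bdnf, a neurotrophin, fell by 1.79 in the ratio and by 2.02 in red, with green at -0.08. For Dusp6, a cytoplasmic phosphatase of ERK, the ratio gave -1.51, red -1.34 and green 0.19. The immediate early genes Arc (-1.16 in the ratio, -1.46 in red) and Fos (-0.87 and -0.94) had green at -0.12 and -0.10. Red changed more than the ratio in 4 of these 5 genes, Dusp6 being the exception.

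The opposite held for 5 genes chosen for the largest share of their ratio change in green. Pcp4, a calmodulin regulator of neurons, rose by 0.70 in the ratio (adjusted p = 9.28e-04) while red was at -0.16 and green fell by 0.78. Stmn4, a neuronal stathmin, rose by 0.86 with red at 0.20 and green at -0.62. Uchl1 (0.62, red 0.05), Brsk2 (0.59, red -0.01) and Hmgcll1 (0.59, red -0.01) had green at -0.55, -0.43 and -0.39. Red was not called for any of the 5. Under scaling to equal spread 4 of them were lower instead (Brsk2 -0.63, Pcp4 -0.36, Stmn4 -0.14 and Uchl1 -0.90), and the call of Hmgcll1 was lost without AP5 5 or vehicle 5 (0.55 and 0.53). Stmn4 lacked vehicle 3 and 5, and Uchl1 lacked AP5 4 and vehicle 1 and 2.

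Changes in the ratio also followed how a gene stood against the reference. Over genes with a mean ratio below -3, 25.4% were lower with AP5 and 0.942% were higher, with a median change of -0.17. Over genes with a mean ratio above 3, 1.31% were lower and 39.5% were higher, with a median change of 0.26. In red the median change was 0.02 and -0.03 in these bins, and rises called in ratio and red but not in green made up 0.942% and 5.14%. Rises were 59.9% of the calls in the ratio and 54.4% of those in red. The split also moved with the scaling. Under scaling of the arrays to equal spread 49.7% of the calls were rises, and 39.8% of those of at least 1.5-fold against 68.1% as analysed. With each array's trend on the mean ratio removed, rises were 51.8% of all calls and 53.1% of those of at least 1.5-fold. In red under median scaling they were 40.6%.

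A few genes of NF-kappaB fell. This transcription factor family drives inflammatory genes and is switched on at synapses, and several of its targets are its own inhibitors. Of 15 measured factors and targets 4 fell and none rose, all 4 in the ratio and in red and without overlap. Of all genes 7.23% fell in the ratio, and 961 of 19201 were called lower in red. Among all genes with a mean ratio from -3 to -2 and from -2 to -1, the bins into which the mean level of the list falls, 20.4% and 13.7% fell. Tnfaip3, an inhibitor of the pathway also called A20, fell by 0.74 (SE 0.05, adjusted p = 1.98e-08), with -2.77 to -2.53 over AP5 arrays and -1.98 to -1.82 over vehicle arrays. The subunits Relb (-0.65) and Nfkb2 (-0.35) and the inhibitor Nfkbia (-0.36) fell too, with adjusted p = 3.54e-05, 2.38e-04 and 0.00179, but Nfkb2 and Nfkbia were higher with AP5 under scaling to equal spread (0.32 and 0.13). The median of the list was -0.13 in the ratio and -0.09 in red, and its mean log2 ratio overlapped between groups, with -2.10 to -1.85 for AP5 and -2.0 to -1.69 for vehicle. Of 11 microglia markers 3 fell in the ratio and 1 of them in red (Fcer1g, -0.53, but 0.35 under that scaling). Their mean log2 ratio was -2.32 to -2.16 with AP5 and -2.19 to -2.01 with vehicle, and their part in the result was not tested.

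Some Wnt ligands were higher with AP5. These secreted factors act through Frizzled receptors and shape synapses in the hippocampus. Of 22 ligands and antagonists 6 rose (27.3%, beside 10.8% of all genes) and 1 fell (4.55%, beside 7.23%), with a median of 0.09. In red 5 were called higher and 2 lower, beside 1146 and 961 of all 19201 genes. Wnt4 (0.62), Wnt7a (0.63), Wnt9b (0.59) and Wnt5a (0.35) rose in ratio and red, and the antagonist Dkk2 fell by 0.42 (SE 0.07, adjusted p = 5.34e-04). Green of Wnt4 was called at 0.10, the arrays of Wnt9b and Wnt5a overlapped, and with slide as a fixed block these 2 were at -0.10 and -0.08. Of 24 receptors and effectors 3 rose and 3 fell, 12.5% each way, and the share of rises is near that of all genes. The receptor Fzd1 (0.36) and the transcription factor Lef1 (0.52, groups overlapping) rose, while Axin2, a target and inhibitor of the pathway, fell by 0.74 (SE 0.13, adjusted p = 5.34e-04), without overlap.

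Receptors for monoamines and acetylcholine rose in part. Of 28 measured, 9 were higher (32.1%, beside 10.8% of all genes) and none lower. The mean log2 ratio of the list ran from 0.88 to 1.13 over these arrays. Among all genes with a mean ratio from 0 to 1 and from 1 to 2 the shares that rose were 9.95% and 20.9%. Red was called higher for only 3 of the receptors and lower for 1, beside 1146 and 961 of all 19201 genes. The 3 were Htr1a, the inhibitory serotonin receptor of hippocampal neurons, Drd5, a dopamine receptor, and Chrm3, a muscarinic receptor. Htr1a was at 1.62, 1.52, 1.59, 1.56 and 1.14 on AP5 arrays 1 to 5 and 0.57, 0.68, 0.43, 0.87 and 0.55 on vehicle arrays 1 to 5 and rose by 0.87 (SE 0.12, limma adjusted p = 5.39e-05), with no overlap. Drd5 rose by 0.67 (SE 0.11, limma adjusted p = 4.16e-04), with its other probe at 0.10, and Chrm3 by 0.52 (SE 0.09, limma adjusted p = 5.46e-04).

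Small GTPases and their regulators moved in both directions. Of 27 Ras-like genes 5 rose (18.5%, beside 10.8% of all genes) and 3 fell (11.1%, beside 7.23%). The closely named Rasl11b and Rasl11a went opposite ways. Rasl11b was at 3.68, 3.63, 3.49, 3.59 and 3.84 on AP5 arrays 1 to 5 and 2.63, 2.79, 2.86, 2.72 and 2.67 on vehicle arrays 1 to 5 and rose by 0.91 (SE 0.08, limma adjusted p = 5.10e-07). Rasl11a was at -1.26, -1.43, -1.43, -1.65 and -1.22 on AP5 arrays 1 to 5 and -0.46, -0.12, -0.13, -0.21 and -0.06 on vehicle arrays 1 to 5 and fell by 1.20 (SE 0.09, adjusted p = 3.70e-08), and neither gene had overlapping groups. Rasl10a rose by 0.86 with green called at 0.22. Of 16 RGS proteins, which speed the shut-off of G proteins, 3 rose and 3 fell in the ratio (18.8% each way). Their mean log2 ratio ran from 1.31 to 1.44 over these arrays. Among all genes with a mean ratio from 1 to 2, 20.9% rose and 4.13% fell. In red 5 were called lower and none higher, beside 961 and 1146 of all 19201 genes, with a median of -0.17. Of these proteins 2 fell in ratio and red with green not called, among them Rgs2 (-0.87 in the ratio). Rgs7 and Rgs8 were higher in the ratio by 0.42 and 0.40 and lower in red by 0.24 and 0.55, and both were lower under scaling to equal spread (-0.34 and -0.54), so their direction depends on the channel and the scaling.

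Other families gave smaller sets, to be read beside the 10.8% of all genes that rose and the 7.23% that fell. Of 29 neuronal bHLH and homeobox factors 7 rose and 4 fell, with Nhlh2 (0.87) and Nhlh1 (0.43), a pair of basic helix-loop-helix factors of developing neurons, higher in ratio and red. The mean log2 ratio of that list ran from 1.58 to 1.96 over these arrays. Among all genes with a mean ratio from 1 to 2, 20.9% rose and 4.13% fell. Of 26 autophagy and lysosome genes Ulk1 (0.49), a kinase that starts autophagy, Atg12 (0.49) and Atg5 (0.29) rose and none fell, with a median of -0.03, and this share of rises (11.5%) is near that of all genes. Of 35 TGF-beta and BMP genes 5 rose and 5 fell. The signal transducer Smad3 (-0.55) and the inhibitor Smad7 (-0.70) fell, and the receptor Acvr1b rose by 0.47. Of 20 p53-regulated genes 3 rose and 1 fell, led by Pmaip1 (1.07), which encodes a BH3-only protein. Of 31 semaphorins, plexins and neuropilins, guidance cues and their receptors, 1 rose and 5 fell, with a median of -0.07 in the ratio and -0.12 in red. In red 4 were called lower and none higher, beside 961 and 1146 of all 19201 genes. Of 27 splicing factors 2 rose and 3 fell, with Srsf9 at -0.45. The shares of rises among the TGF-beta, p53 and splicing genes (14.3%, 15.0% and 7.41%) were also near that of all genes.

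In some families the ratio and red did not go together. Of 25 calcium pumps, exchangers and store channels 5 rose in the ratio, beside 10.8% of all genes, with a median of 0.16, and none was called in red, where the median was -0.07. Of 25 inward rectifier, two-pore and HCN channels 4 rose (16.0%) and 1 fell in the ratio. In red 6 were called lower and none higher, beside 961 and 1146 of all 19201 genes. Markers of excitatory and of GABAergic neurons were higher in the ratio for 5 of 11 and 6 of 13, with medians of 0.25 and 0.30. Their mean levels did not overlap between groups, and their medians in red were 0.05 and -0.02. In red 1 excitatory marker was called higher and 2 lower, beside 1146 and 961 of all 19201 genes, and no GABAergic marker was called. The mean log2 ratio of the excitatory and the GABAergic list ran from 2.70 to 3.15 and from 3.05 to 3.58 over these arrays. Among all genes with a mean ratio from 2 to 3 and above 3 the shares that rose were 21.7% and 39.5%. For the 2 channel lists the mean ran from 1.05 to 1.38 and from 1.72 to 2.05, and 20.9% of all genes with a mean ratio from 1 to 2 rose. Astrocyte markers had a median of 0.12 in the ratio and -0.03 in red, with 1 of 14 called. Kdr, an endothelial marker, rose by 1.28 in the ratio and 1.08 in red, while the other 11 endothelial markers held 1 that fell and none that rose.

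Families were also formed from gene symbols, by the letters before the first digit. Of 194 such families with at least 10 genes, those with the highest share of rises were Wnt (6 of 15), Dnajb (4 of 10), Scn (4 of 10), Kcnj (4 of 12), Mfsd (5 of 16) and Galnt (5 of 17), beside 10.8% of all genes. Families were chosen by these shares, so no test applies. Voltage-gated sodium channels (Scn) had no member called in red. None of the Kcnj genes that rose was called in red, where other members of that family were called lower. Most of the Mfsd and Galnt genes that rose were not called in red either, and those of Wnt and Dnajb were in part. Falls were most frequent among Ifi (6 of 10), Lsm (4 of 13), Sp (3 of 10), Mtmr (3 of 11), Hdac (3 of 11) and Tnfrsf (5 of 19), beside 7.23%. Of the 6 interferon-inducible Ifi genes that fell 1 was called in red, where their family median was -0.03 against -0.28 in the ratio. Red was called lower for no Sp gene, 1 Tnfrsf gene, 1 Lsm gene and 2 Hdac genes, beside 961 of all 19201 genes. Mtmr, the myotubularin lipid phosphatases, held 2 rises and 2 falls that were called in ratio and red but not in green.

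Agreement between probes of a gene followed their brightness and distance. Per probe, 4866 of 28638 were called (17%). Of the 282 genes changed at least 1.5-fold, 108 had more than 1 probe. In 59 of these every probe was called the same way, in 32 no other probe was called the same way, and in 1 another probe was called the other way. Those 108 genes gave 155 further probes, of which 140 had the sign of the representing probe and 94 were also called that way. Of further probes with a brightness of 10 and over all 13 were called the same way, of those from 8 to 10 it was 38 of 42, from 7 to 8 it was 26 of 45 and under 7 it was 17 of 55. By distance, 20 of 23 were called the same way within 500 bases, 57 of 82 at 500 to 5000 bases, 14 of 40 at 5000 to 50000 bases and 2 of 9 beyond, with 1 further probe not placed on the same strand and chromosome. Brightness and distance were not separated from each other.

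**Figure D4:**
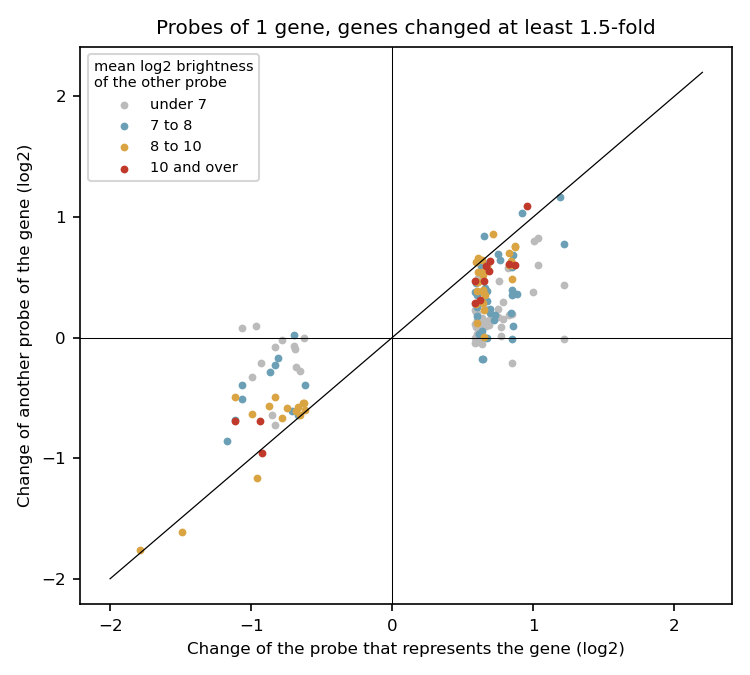
Log2 change between AP5 and vehicle of each further probe against that of the probe representing the same gene, for 155 probes of the 108 genes changed at least 1.5-fold that had more than 1 probe, coloured by the brightness of the further probe. The change of the further probe had a median of 0.74 of the representing change at a brightness of 10 and over, 0.81 from 8 to 10 and 0.21 under 7.

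The 6 probes of Cflar, an inhibitor of caspase-8, changed in both directions, from -0.21 to 0.85. The representing probe was at 0.43, 0.04, -0.08, -0.38 and 0.94 on AP5 arrays 1 to 5 and -0.70, -0.46, -0.49, -0.71 and -0.94 on vehicle arrays 1 to 5. It rose by 0.85 (SE 0.21, limma adjusted p = 0.00844), again with AP5 1 and 5 highest, and no other gene changed at least 1.5-fold had a probe at least 0.2 the other way.

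The arrays outside slides 1 and 5 gave a further comparison. Genes were called again from the 4 AP5 arrays of slide 1 and the 4 vehicle arrays of slide 5 and were then looked up in AP5 5 minus vehicle 2, on slides 2 and 4. Of 332 genes called and changed at least 1.5-fold, 308 (92.8%) had the same direction on the held-out arrays, 204 of 224 that rose and 104 of 108 that fell. Of all 3133 called genes with a value 88.2% had the same direction, as did 62.3% of 16019 genes not called. The share was 96.6% for the 1104 genes called the same way in red and 83.6% for the 2029 that were not. The held-out change was 0.77 times the other on a line through 0 for genes of at least 1.5-fold. AP5 5 and vehicle 2 are 1 array each, so this difference has no replicate of its own, and it also lies between slides. The comparison was added after the data were seen.

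**Figure D5:**
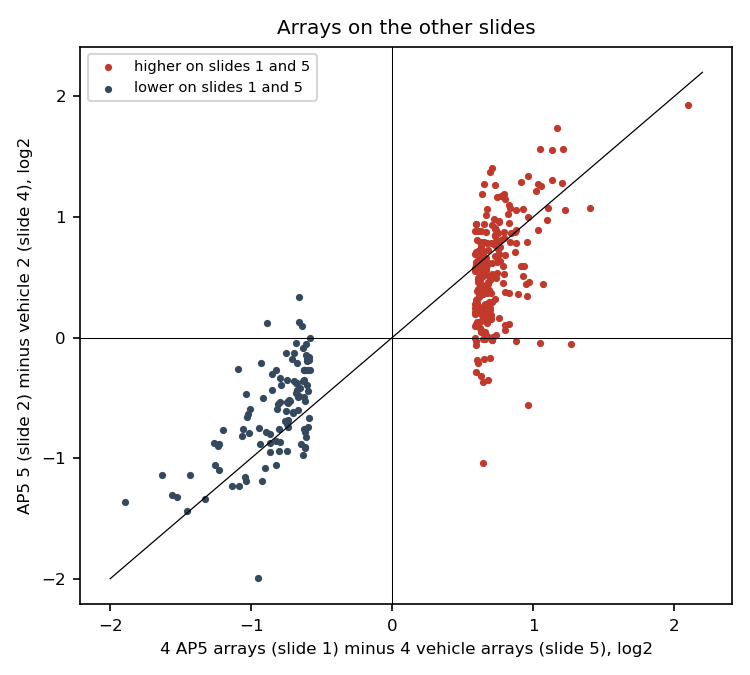
Log2 change of each gene on the held-out arrays (AP5 5 minus vehicle 2) against that between the 4 AP5 arrays of slide 1 and the 4 vehicle arrays of slide 5, for the 332 genes called and changed at least 1.5-fold in the latter. Of these, 308 lie in the upper right or lower left panel.

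Promoter sequences from RefSeq (GRCm38.p6), 250 bases before to 50 after a gene's start, were found by symbol for 12684 of the 19201 genes, with the start listed first for genes with several. They were searched on both strands for sites of factors driven by calcium and ERK and for the FOXO site. The cyclic AMP response element TGACGTCA was held by 2.92% of all promoters, by 3 of 135 of genes that rose at least 1.5-fold and by none of 61 of genes that fell at least that much. The shorter TGACG, which the full element contains, was held by 28.8%, 25.2% and 36.1%. For the AP-1 site TGANTCA these shares were 5.64%, 2.96% and 4.92%, and for the EGR site GCGNGGGCG 9.70%, 12.6% and 14.8%. For the serum response CArG box they were 1.39%, 3.70% (5 of 135) and 3.28% (2 of 61). For the FOXO site TGTTTAC they were 2.68%, 2.22% and 1.64%. A match is a description of these letters and no evidence of binding.

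Of the 44 genes with largest changes named by rule, 37 had a promoter. The count of those holding a full cyclic AMP response element or CArG box left out the genes of 1 chromosome. Among the rest, Prkab2 alone held such a site. Prkab2, a regulatory subunit of the energy sensor AMPK, was at 1.90, 1.60, 1.69, 1.85 and 2.02 on AP5 arrays 1 to 5 and 0.42, 0.46, 0.72, 0.68 and 0.68 on vehicle arrays 1 to 5, above vehicle on every AP5 array by 1.22 (SE 0.10, limma adjusted p = 1.82e-07). Its promoter (chr3:97657962-97658261, plus strand) is shown with the CArG box in capitals, next to those of B3galt5 (chr16:96235551-96235850, plus strand) and Tmem114 (chr16:8425087-8425386, minus strand), the genes of the rule that rose most, which held none of the full sites searched, while B3galt5 held the shorter TGACG on the minus strand. Each reads 5′ to 3′, and the CArG box of Prkab2 starts 29 bases after the gene start.
Prkab2: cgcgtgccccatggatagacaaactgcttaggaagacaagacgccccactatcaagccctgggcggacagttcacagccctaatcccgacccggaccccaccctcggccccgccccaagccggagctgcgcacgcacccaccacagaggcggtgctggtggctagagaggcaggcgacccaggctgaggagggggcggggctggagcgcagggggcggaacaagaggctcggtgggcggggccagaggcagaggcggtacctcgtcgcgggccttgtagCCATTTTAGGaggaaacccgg
B3galt5: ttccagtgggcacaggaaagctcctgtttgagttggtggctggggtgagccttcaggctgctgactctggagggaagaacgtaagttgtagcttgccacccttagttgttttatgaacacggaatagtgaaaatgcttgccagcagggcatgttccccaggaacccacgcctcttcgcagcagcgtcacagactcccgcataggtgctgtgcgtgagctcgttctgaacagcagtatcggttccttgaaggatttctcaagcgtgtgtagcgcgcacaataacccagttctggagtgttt
Tmem114: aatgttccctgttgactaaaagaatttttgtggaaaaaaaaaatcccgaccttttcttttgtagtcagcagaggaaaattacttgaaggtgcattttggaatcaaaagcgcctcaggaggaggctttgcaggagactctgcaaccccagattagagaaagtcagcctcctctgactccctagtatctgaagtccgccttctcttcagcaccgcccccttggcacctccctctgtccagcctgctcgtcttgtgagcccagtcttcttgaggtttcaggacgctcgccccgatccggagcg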

How the data were processed

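RNA of the neurons (Cy5) and universal mouse reference RNA (Cy3) were hybridised to 2-colour Agilent arrays without dye swap. The authors' deposited scanner files hold the mean and background intensity of each spot and a log10 ratio made by Feature Extraction 9.5.3.1, per the file headers; the submitters' processing notes name version 11.0. The deposited series table holds log2 ratios, whose centring is not given in the sources used here. Probe positions are of mm8, per the file headers.

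Marked spots (117 to 266 an array, 1642 on vehicle 5) were left out. Background was corrected with normexp (offset 50), ratios were normalised by loess within arrays, and spots of a probe were averaged. Probes with red well above background on at least 4 arrays were kept, and the brightest probe represented a gene. Gene names came from RefSeq GRCm38.p6 by accession (23374 probes), symbol (6733) or synonym (2919), and otherwise from the files (8148). Group means over 19 arrays were compared with limma 3.58.1 (R 4.3.3), two-sided, with Benjamini-Hochberg adjustment at 0.05. Red and green were each quantile normalised and tested alike. The script was tested on simulated data. The gene lists, the rules for named genes and the comparison itself were chosen with earlier results of these data known. Named genes were the 12 largest changes each way with several probes and the 10 with 1 probe that met the stated conditions, up to 3 called members a list, the gene with a probe at least 0.2 the other way, and the 5 with the largest share of their change in green. Further decay genes and their substrates, the 5 genes with green called and others beyond this rule were named after their values were seen. Some genes are not reported here.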

Additional observations from a re-analysis of the deposited data

Results flagged for a closer look

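In 6 of 206 groups of 5 arrays, formed by the named genes in AP5 and in vehicle, 1 array lay apart from the others by more than 0.71 of the range of the group, the 95% limit of Dixon's test for 5 values. About 1 group in 20 passes that limit by chance. Vehicle 3 was the lowest vehicle array for Cebpd, at -1.40, for Fzd1, at -0.59, and for Kpna4, at 0.24. Vehicle 2 was the highest vehicle array for Rgs8, at 4.60, and for Gadd45a, at -2.29, where the other 4 vehicle arrays spanned little. AP5 5 was the lowest AP5 array for Htr1a, at 1.14. Groups of AP5 and vehicle did not overlap for these genes other than Rgs8.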

How the results depend on the processing

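Alternatives are given as counts of called genes beside 3465 in all and 282 of at least 1.5-fold. Leaving out each array in turn gave 2616 to 3494 and 253 to 330. Slide as a fixed block gave 10 and 10, AP5 5 against vehicle 2 alone 122 and 102, and slide as a random block 4832 and 294. Normexp fitted to all spots gave 842 and 130, the deposited log10 ratios 2520 and 699, scaling to equal spread 4805 and 1129, the series table of 12078 genes 2236 and 230, and the astrocyte marker mean as a covariate 5482 and 303. Red alone called 2107 genes, and 4689 under median scaling, where green called 5782. Of the called genes 83.2% kept their direction with slide as a fixed block, 65.3% under scaling to equal spread, 88.1% in red alone and at least 96.2% under each other alternative, and of the 1301 genes called in ratio and red but not green 92.0%, 89.6%, 100% and at least 99.5%. The fixed block raised the median standard error of the called genes to 0.21. Direction turned in red alone for Brsk2 (-0.0075), Hmgcll1 (-0.0079), Pcp4 (-0.16), Rgs7 (-0.24) and Rgs8 (-0.55). It turned under scaling to equal spread for Brsk2 (-0.63), Pcp4 (-0.36), Stmn4 (-0.14), Uchl1 (-0.90), Rgs7 (-0.34), Rgs8 (-0.54), Fcer1g (0.35), Nfkb2 (0.32), Nfkbia (0.13), Snhg3 (0.36) and Snhg8 (0.048). With slide as a fixed block it turned for Dusp4 (0.0090), Snhg3 (0.059), Wnt5a (-0.079) and Wnt9b (-0.10), with AP5 5 against vehicle 2 for Pcp4 (-0.028) and Snhg3 (0.013), and over the mean of probes for Rgs8 (-0.14). The cause of these changes was not tested. Scan time followed slide exactly, so scan date was not run as a block of its own.

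Arrays share replicate numbers 1 to 5 in the titles. With the replicate block 3052 genes were called, 275 of them at least 1.5-fold, with 1655 in red and 963 in green. Deviations of AP5 and vehicle arrays of the same number correlated at -0.47 to 0.09, and 0 of 5 AP5 arrays correlated best with their own number. These correlations showed no pairing by number, but with 5 arrays a group they cannot exclude it.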

Other observations

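Several gene groups not described above held a few called members, to be read beside the 10.8% of all genes that rose and the 7.23% that fell. Of 22 Notch pathway genes 2 rose and none fell in the ratio and in red, a share of rises (9.09%) below that of all genes, with Hes1, a repressor that Notch induces, higher by 0.56. Of 15 SOX factors 3 rose and none fell, 2 of them also in red, led by Sox11 (0.67), a factor of immature neurons. The mean log2 ratio of the SOX list ran from 1.13 to 1.56 over the AP5 and vehicle arrays. Among all genes with a mean ratio from 1 to 2, 20.9% rose, near the 20% of this list. Of 27 galactosyl- and sialyltransferases 6 rose and 1 fell, with B3galt2 at 0.43 (vehicle 5 missing) and B4galt3 at -0.48. Their mean log2 ratio ran from 0.92 to 1.19, and 9.95% of all genes from 0 to 1 and 20.9% from 1 to 2 rose. Of 15 chemokines and cytokines 4 fell in the ratio and none was called in red. Their mean log2 ratio ran from -2.25 to -1.72. Among all genes with a mean ratio from -3 to -2 and from -2 to -1, 20.4% and 13.7% fell. Of 21 interferon-stimulated genes 1 rose and 2 fell in the ratio, with a median of -0.10. In red 2 were called higher and none lower, beside 1146 and 961 of all 19201 genes, and the median was 0.15.

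Arrays differed within groups along 1 main direction. After each group's mean was removed, the first principal component over 18298 genes held 48.4% of the spread of the log ratios over the 19 arrays and 38.2% of that of red. Its high end held Gfap, Aldoc and Cav1, and its low end held Cox6a2 and Cort. Scores were -9.59, 16.2, 11.4, 7.63 and -25.6 on AP5 arrays 1 to 5 and 14.1, -6.37, -20.8, 6.69 and 6.43 on vehicle arrays 1 to 5. AP5 5 and vehicle 3 stood at the low end, and these were also lowest in the mean of the astrocyte markers. Scores of both signs occurred on slide 1 and on slide 5.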
